A study of Mus musculus with 10 samples.

Results

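The genes of cholesterol and fatty acid synthesis were examined in the newborn hindbrain and upper spinal cord of mice with and without the transcription factor Nkx2.2. The set is a fixed list of 34 genes of known pathway roles, and its members are all probe sets that the platform's annotation assigns to a listed gene. This gave 78 probe sets for 33 genes, out of 45037 non-control probe sets and 18193 genes in all. The list was split into 15 measured cholesterol synthesis enzymes (35 probe sets), 6 genes of sterol sensing and regulation (12 probe sets), and 12 genes of fatty acid synthesis, elongation and desaturation (31 probe sets). The remaining listed enzyme, Acat2, had no probe set under its symbol and is not analysed here. All measured members had a probe set naming that gene alone.

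The study compared 5 wild-type mice (replicates 14, 15, 16, 18 and 21) with 5 Nkx2.2-/- littermates (replicates 11, 12, 22, 29 and 43), all C57BL/6 and 1.5 to 2 days old, to find transcripts that differ when Nkx2.2 is missing. RNA came from pons, medulla and rostral spinal cord taken from 20 µm sections of frozen brain, with 1 expression array per mouse. The genotype label of the Nkx2.2-/- mice names no restriction to a cell type, and the tissue is a mixture of cells. Fewer cells of a type and less RNA per cell therefore cannot be told apart in any value below. Values are log2 RMA expression values, and differences are Nkx2.2-/- minus wild type on that scale.

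Cholesterol is built from acetyl-CoA through mevalonate, farnesyl diphosphate, squalene and lanosterol. Fatty acids are built from the same acetyl-CoA by acetyl-CoA carboxylase and fatty acid synthase, then lengthened by elongases and desaturated. Both branches are driven by the SREBP transcription factors, encoded by Srebf1 and Srebf2. The escort protein Scap carries SREBPs to the Golgi for cleavage when sterols are low, and the Insig proteins hold them in the endoplasmic reticulum when sterols are plentiful. The brain makes nearly all of its own cholesterol, and oligodendrocytes need large amounts of it to form myelin.

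The arrays had medians from 5.07 to 5.12. Nkx2-2 itself separated the groups, at 6.42 to 6.88 in wild-type and 4.24 to 4.73 in Nkx2.2-/- mice (exact two-sided permutation p = 0.00794, the smallest that 5 against 5 can give). Mbp, the myelin basic protein, lay at 10.4 to 10.9 against 7.33 to 8.61. Array quality was read from control probe sets at both ends of the Gapdh transcript. On 2 arrays, those of wild-type mouse 14 and Nkx2.2-/- mouse 43, the 5 prime end gave less signal. It read 9.11 and 7.43 there, against 11.28 to 11.80 on the other 8. The 3 prime minus 5 prime difference was 2.13 and 3.78 there, against -0.32 to 0.13 on the other 8. For beta-actin the same difference set these arrays apart less, at 1.25 and 1.44 against 0.91 to 1.19. Mean levels of marker lists were 9.86 to 10.26 for neurons and 8.08 to 8.47 for astrocytes, and 4.95 to 5.59 for spinal cord Hox genes.

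No member rose or fell by the test over all genes. Among 33 genes, each read by its brightest probe set, 0 passed at an adjusted p under 0.05 in either direction (limma, Benjamini-Hochberg adjusted p = 0.9996 for each), against 0.0605% of all genes. At an unadjusted limma p under 0.05, 2 members were lower, Fdps and Elovl5, and 0 were higher. Among all genes 2.71% were lower and 0.517% higher by that rule. In 0 of 33 members were the groups free of overlap, compared with 0.528% of genes lower and 0.154% higher. In sign, 28 members were lower and 5 higher, where 53% of all genes were lower. The branches differed in this description. All 15 cholesterol enzymes were lower in sign with a median difference of -0.17, 4 of 6 regulatory genes with a median of -0.12, and 9 of 12 fatty acid genes with a median of -0.04, beside a median over all genes of -0.0042. Whether the branches differ was not tested. Leaving out Nkx2.2-/- replicate 11 changed these counts to 14 of 15, 4 of 6 and 3 of 12, where 49.6% of all genes were lower and 0 members passed (0.0495% of genes did), and the medians to -0.09, -0.10 and 0.02. Without wild-type replicate 14 the counts were 12 of 15, 5 of 6 and 6 of 12, and the medians -0.12, -0.11 and 0.01.

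**Figure D1:**
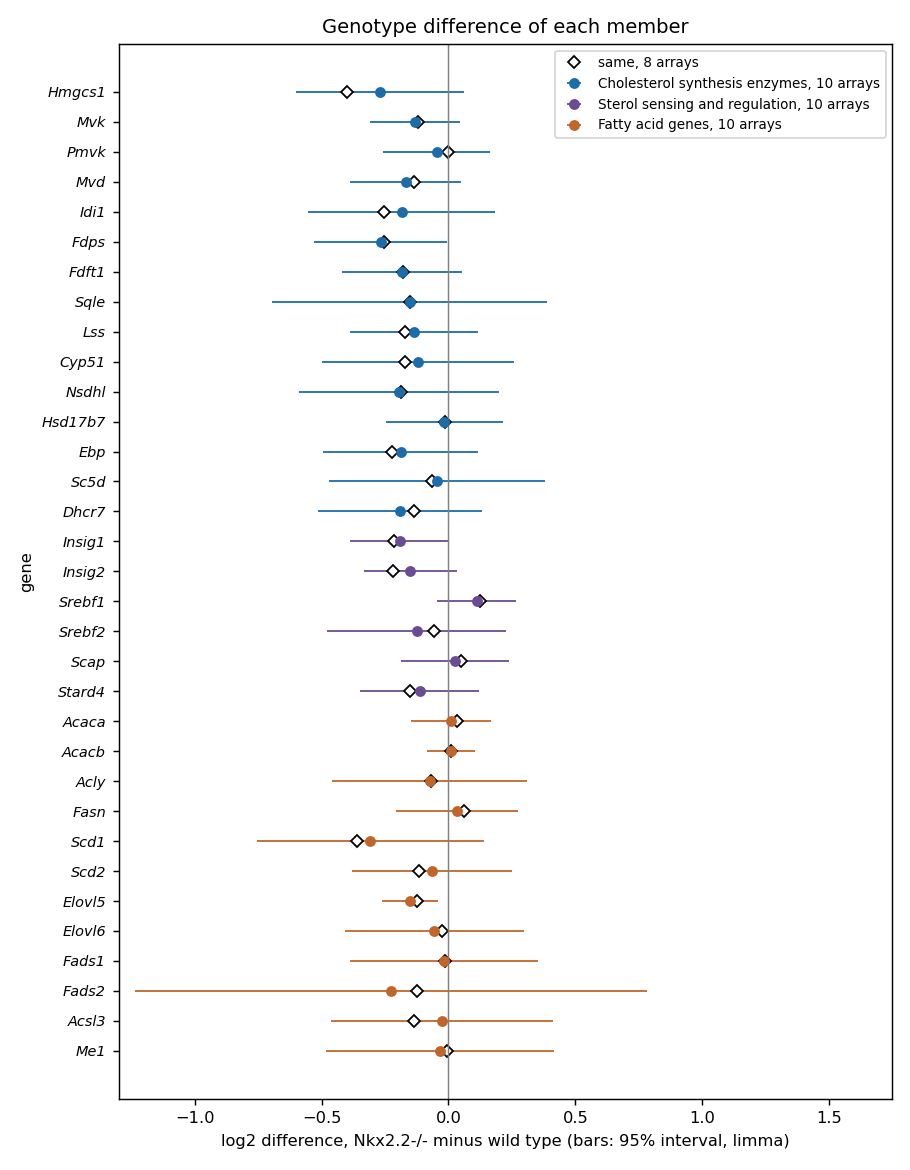
Log2 difference between 5 Nkx2.2-/- and 5 wild-type mice for each of 33 genes (filled points, with 95% intervals from limma), and the same difference over the 8 arrays with balanced Gapdh ends (open diamonds). All 15 cholesterol enzymes lie left of 0, and only Fdps and Elovl5 have an interval that leaves out 0 before adjustment over genes.

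Among the early enzymes of the cholesterol branch, Hmgcs1 condenses acetyl-CoA units into the precursor of mevalonate. Its brightest probe set read 10.17, 10.29, 10.51, 10.32 and 10.02 in the wild-type mice, listed as 14, 15, 16, 18 and 21, and 9.57, 9.85, 9.91, 10.20 and 10.43 in Nkx2.2-/- replicates 11, 12, 22, 29 and 43. Replicates 11, 12 and 22 lay below every wild-type mouse, while 29 and 43 lay inside the wild-type range. Wild-type mice averaged 10.26 ± 0.183 and Nkx2.2-/- mice 9.99 ± 0.333 (SD, n = 5 each). The difference was -0.27 (SE 0.150, limma adjusted p = 0.9996). Mvk, mevalonate kinase, read 6.49, 6.65, 6.64, 6.45 and 6.33 in wild-type mice and 6.20, 6.38, 6.46, 6.56 and 6.31 in Nkx2.2-/- mice, in the same order of replicates. The groups overlapped over most of their range, and the difference was -0.13 (SE 0.0802). Mvd, which makes isopentenyl diphosphate, read 6.75, 6.91, 6.70, 6.67 and 6.57 against 6.26, 6.58, 6.80, 6.68 and 6.44, a difference of -0.17 (SE 0.0994). Here replicates 11 and 43 were below all wild-type mice and replicate 22 was above all but replicate 15 of them. The other 2 genes of this stretch, Pmvk and Idi1, which encode a kinase and an isomerase, had differences of -0.05 and -0.19.

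Fdps makes farnesyl diphosphate, the last intermediate shared with non-sterol products. It read 8.57, 8.93, 8.81, 8.73 and 8.65 in wild-type mice and 8.15, 8.52, 8.66, 8.76 and 8.25 in Nkx2.2-/- mice. Replicates 11, 12 and 43 lay under the lowest wild-type value, and 22 and 29 did not. Wild-type mice averaged 8.74 ± 0.141 and Nkx2.2-/- mice 8.47 ± 0.260 (SD, n = 5 each). The difference was -0.27 (SE 0.119, 95% interval -0.53 to -0.01). Its limma p was 0.0463 unadjusted, and the limma adjusted p = 0.9996. Fdft1, squalene synthase, is the first enzyme committed to sterols. It read 8.44, 8.32, 8.23, 8.16 and 7.93 against 7.79, 7.96, 7.97, 8.20 and 8.24, a difference of -0.18 (SE 0.107), with replicate 21 the low wild-type mouse and replicate 11 again the lowest of all.

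The later enzymes close, trim and reduce the sterol rings. Ebp, a sterol isomerase, read 6.19, 6.74, 6.69, 6.78 and 6.85 in wild-type and 6.34, 6.48, 6.67, 6.68 and 6.14 in Nkx2.2-/- mice. Replicates 14 and 43, the arrays of low 5 prime Gapdh signal, were the lowest of their groups, and the difference was -0.19 (SE 0.139) with them and -0.22 without. Sqle, squalene epoxidase, had a difference of -0.15, Lss, lanosterol synthase, of -0.14, and Cyp51, the lanosterol demethylase, of -0.12. Nsdhl and Hsd17b7, which act together in removing methyl groups, had differences of -0.19 and -0.02. Sc5d and Dhcr7, of the last steps, had -0.04 and -0.19. None of these passed the test over all genes.

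As a description of what these enzymes share beyond their pathway, the RefSeq promoter windows of build GRCm38.p6 were searched, each covering 250 bases before to 50 bases after an annotated gene start. A window was given for 26 of the 33 measured members. The motif CCAAT, on either strand, stood in at least 1 window of 12 of 12 cholesterol enzymes, 4 of 5 regulatory genes and 6 of 9 fatty acid genes with a window, beside 42.0% of 14452 measured genes with one. Some genes have several windows. Counted by window the motif stood in 12 of 15, 5 of 10 and 6 of 10 in the same order of lists, against 37.4% of all windows. The motif GGGCGG, on either strand, stood in 11 of 12, 5 of 5 and 4 of 9 genes, beside 57.3% of measured genes. The sterol regulatory element, searched as TCACNCCAC on either strand, stood in 1 member, Hmgcs1, and in 1.46% of measured genes. Matches of CCAAT and GGGCGG can share letters where they adjoin, and each was counted. The stretches below show the Hmgcs1 element and, for each of the 12 cholesterol enzymes with a window, the upstream CCAAT match nearest the gene start, because in this list each such gene held one. Each match has up to 20 flanking bases on either side, cut off at the gene start. They are written 5′ to 3′ on the gene's strand, with the match in capitals (ATTGG is CCAAT read on the other strand).
Hmgcs1, element, chr13:119690194-119690242, plus strand: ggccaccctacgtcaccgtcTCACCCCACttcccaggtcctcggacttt
Hmgcs1, CCAAT, chr13:119690286-119690330, plus strand: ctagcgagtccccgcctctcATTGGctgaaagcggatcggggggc
Mvk, chr5:114444235-114444268, plus strand: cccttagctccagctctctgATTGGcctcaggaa
Pmvk, chr3:89454385-89454429, plus strand: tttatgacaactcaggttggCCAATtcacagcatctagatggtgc
Mvd, chr8:122443425-122443469, minus strand: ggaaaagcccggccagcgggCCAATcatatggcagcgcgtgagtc
Idi1, chr13:8885572-8885605, plus strand: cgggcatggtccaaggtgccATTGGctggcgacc
Lss, chr10:76531523-76531567, plus strand: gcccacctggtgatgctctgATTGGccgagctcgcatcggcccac
Cyp51, chr5:4104702-4104746, minus strand: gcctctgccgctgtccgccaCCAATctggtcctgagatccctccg
Nsdhl, chrX:72918481-72918520, plus strand: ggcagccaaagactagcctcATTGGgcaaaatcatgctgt
Hsd17b7, chr1:169969206-169969237, minus strand: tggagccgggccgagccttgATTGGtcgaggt
Ebp, chrX:8193543-8193587, minus strand: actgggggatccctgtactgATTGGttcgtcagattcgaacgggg
Sc5d, chr9:42264301-42264344, minus strand: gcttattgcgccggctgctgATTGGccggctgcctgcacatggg
Dhcr7, chr7:143830145-143830189, plus strand: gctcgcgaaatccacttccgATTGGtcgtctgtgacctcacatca
The matches are letters in these windows and no binding was measured.

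The regulatory genes had a median difference of -0.12, between those of the cholesterol and fatty acid lists. Insig1, itself a target of SREBPs and a brake on them, read 7.29, 7.47, 7.23, 7.42 and 7.04 in wild-type mice and 6.87, 7.11, 7.18, 7.14 and 7.19 in Nkx2.2-/- mice. Replicate 11 stood well below the other Nkx2.2-/- mice, which lay between the lowest wild-type mouse and the next. The difference was -0.19 (SE 0.0876, limma adjusted p = 0.9996). Insig2, the other Insig protein, read 6.16, 6.15, 6.17, 6.12 and 6.24 against 5.81, 6.12, 5.86, 6.01 and 6.29, a difference of -0.15 (SE 0.0829). Wild-type mice spanned a narrow range that the Nkx2.2-/- mice passed on both sides. Srebf1, which drives mainly fatty acid genes, had the largest positive difference of all members, 0.11 (SE 0.0709). It read 6.34, 6.27, 6.15, 6.39 and 6.49 in wild-type and 6.62, 6.37, 6.37, 6.44 and 6.40 in Nkx2.2-/- mice, with replicate 11 the highest of all. Srebf2, which drives mainly cholesterol genes, had a difference of -0.13, Scap of 0.02, and Stard4, a sterol carrier, of -0.11.

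In the fatty acid branch the genes at its entry had values near 0. Acly, which makes cytosolic acetyl-CoA from citrate, had a difference of -0.07. Both acetyl-CoA carboxylases, Acaca and Acacb, had differences of 0.01. Me1, which supplies NADPH, had one of -0.03. Fasn, fatty acid synthase, read 8.86, 9.18, 8.97, 9.22 and 9.17 in wild-type mice and 9.09, 9.09, 9.32, 9.29 and 8.77 in Nkx2.2-/- mice. Replicates 14 and 43 were the lowest of their groups, and the difference was 0.03 (SE 0.109).

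Among elongases, Elovl5, which extends polyunsaturated chains, had the lowest unadjusted p of the members. It read 8.45, 8.34, 8.39, 8.47 and 8.41 in wild-type and 8.22, 8.21, 8.27, 8.40 and 8.19 in Nkx2.2-/- mice. All but replicate 29 of the Nkx2.2-/- mice lay below every wild-type mouse. Wild-type mice averaged 8.41 ± 0.0518 and Nkx2.2-/- mice 8.26 ± 0.0869 (SD, n = 5 each). The difference was -0.15 (SE 0.0502, 95% interval -0.26 to -0.04). Adjusted over all genes, the limma adjusted p = 0.9996. The second Elovl5 probe set had a difference of -0.09. Elovl6, which extends saturated chains, had one of -0.06.

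Among the desaturases, Fads2 had the largest SD of all 33 members in both groups, at 0.719 and 0.938. Scd1, a stearoyl-CoA desaturase, read 7.15, 6.79, 6.95, 6.53 and 6.31 in wild-type and 5.96, 6.42, 6.32, 6.44 and 7.06 in Nkx2.2-/- mice. The groups overlapped widely, and replicates 14 and 43 were the highest of theirs. The difference of -0.31 (SE 0.202) was the most negative of all members by the brightest probe set. Scd2, the main brain form, read 11.20, 10.82, 11.10, 11.03 and 10.71 against 10.59, 10.84, 10.70, 11.06 and 11.34, with a difference of -0.07 (SE 0.142). Fads2, the first desaturase for polyunsaturated chains, read 5.87, 7.27, 7.60, 7.38 and 7.56 in wild-type and 7.20, 7.46, 7.33, 7.33 and 5.24 in Nkx2.2-/- mice. Replicates 14 and 43 stood far below all others. The difference was -0.23 (SE 0.457) over 10 arrays, -0.12 without both, 0.19 without replicate 43 alone, and 0.01 with the Gapdh difference as a covariate. Fads1, its partner desaturase, had a difference of -0.02, and Acsl3, an acyl-CoA synthetase, of -0.03.

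**Figure D2:**
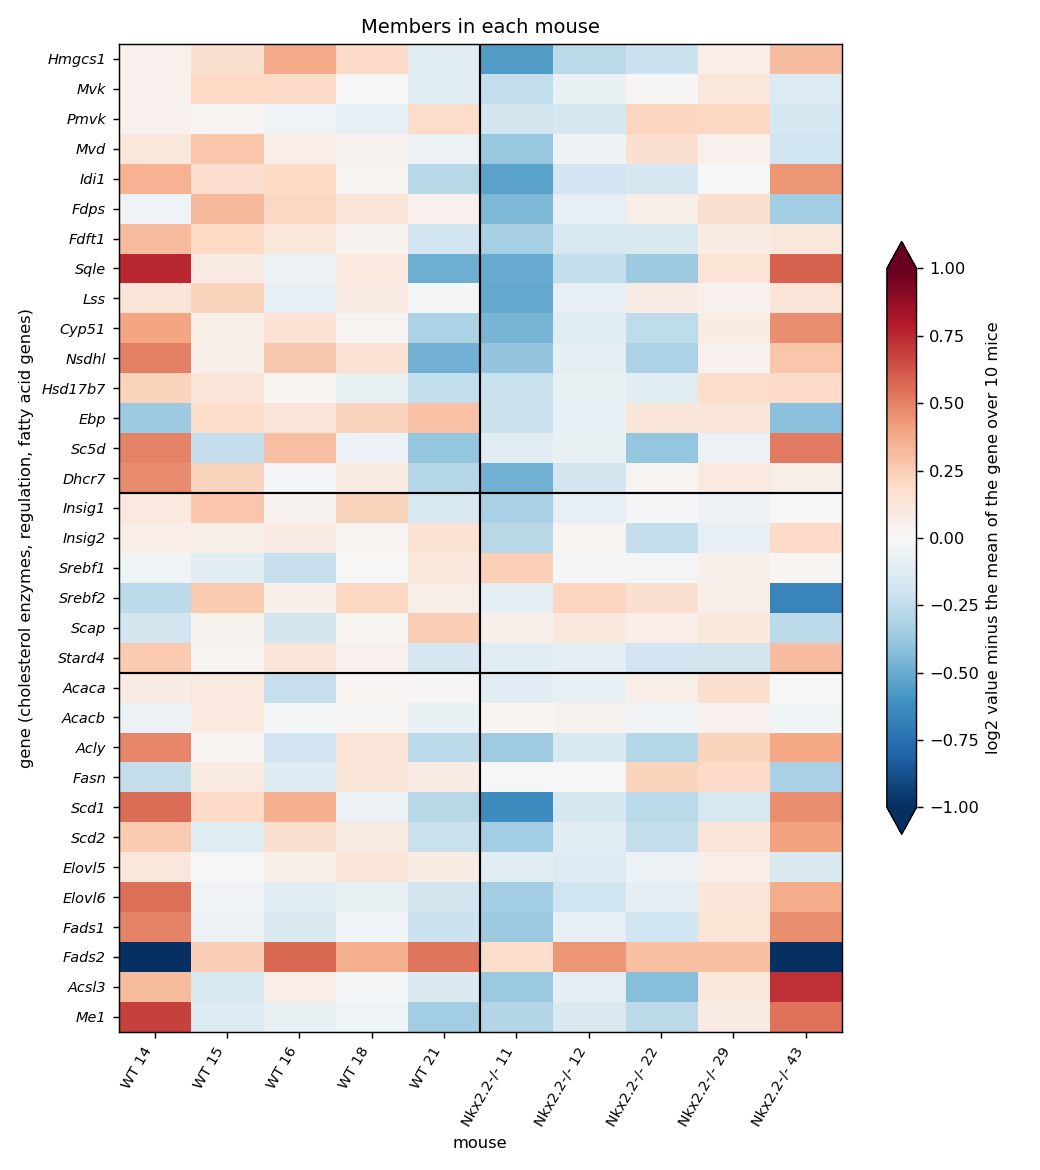
Log2 value of each of 33 genes in each of 10 mice, minus that gene's mean over the mice (red higher, blue lower; colours end at 1 either way). Nkx2.2-/- replicate 11 is blue through most of the cholesterol enzymes, wild-type replicate 21 shares that pattern in several, and replicates 14 and 43 carry most of the deep colours, with Fads2 beyond the end of the scale.

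For the cholesterol mean, the SD between mice of 1 genotype was about as large as the difference between genotypes. The mean over the 15 cholesterol enzymes was 7.62, 7.53, 7.51, 7.45 and 7.23 in wild-type mice (14, 15, 16, 18 and 21), and 7.02, 7.26, 7.30, 7.48 and 7.51 in Nkx2.2-/- replicates 11, 12, 22, 29 and 43. The group means were 7.47 ± 0.148 and 7.31 ± 0.198 (SD, n = 5 each), and the difference of -0.15 became -0.08 without replicate 11. Replicate 11 was the lowest of all 10 mice for 11 of 15 cholesterol enzymes, 2 of 6 regulatory genes and 5 of 12 fatty acid genes, beside 12.9% of all genes. It was the lowest Nkx2.2-/- mouse for 22 of 33 members, beside 20.1%. Wild-type replicate 21 was the lowest of its own group for 11, 2 and 7 members of these lists, beside 23.4% of genes. Both were lowest of their groups at once for 10 of 15 cholesterol enzymes and 6 of 12 fatty acid genes, beside 3.91% of genes. Among these were Hmgcs1, Mvk, Mvd, Idi1, Fdft1, Sqle, Cyp51 and Dhcr7 on the sterol side, and Acly, Scd1, Scd2, Elovl6, Fads1 and Me1 on the other. These mice were singled out after their values were seen.

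The fatty acid mean was 8.19, 8.04, 8.05, 8.07 and 7.93 in wild-type and 7.79, 7.96, 7.91, 8.14 and 8.11 in Nkx2.2-/- mice, with a difference of -0.08 that became -0.03 without replicate 11. Its high and low mice were largely those of the cholesterol mean. The regulatory mean ran from 6.68 to 6.79 in wild-type and from 6.61 to 6.72 in Nkx2.2-/- mice. Its difference of -0.07 was larger than the SDs of 0.052 in wild-type and 0.045 in Nkx2.2-/- mice. The means overlapped between the genotypes in all 3 lists.

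**Figure D3:**
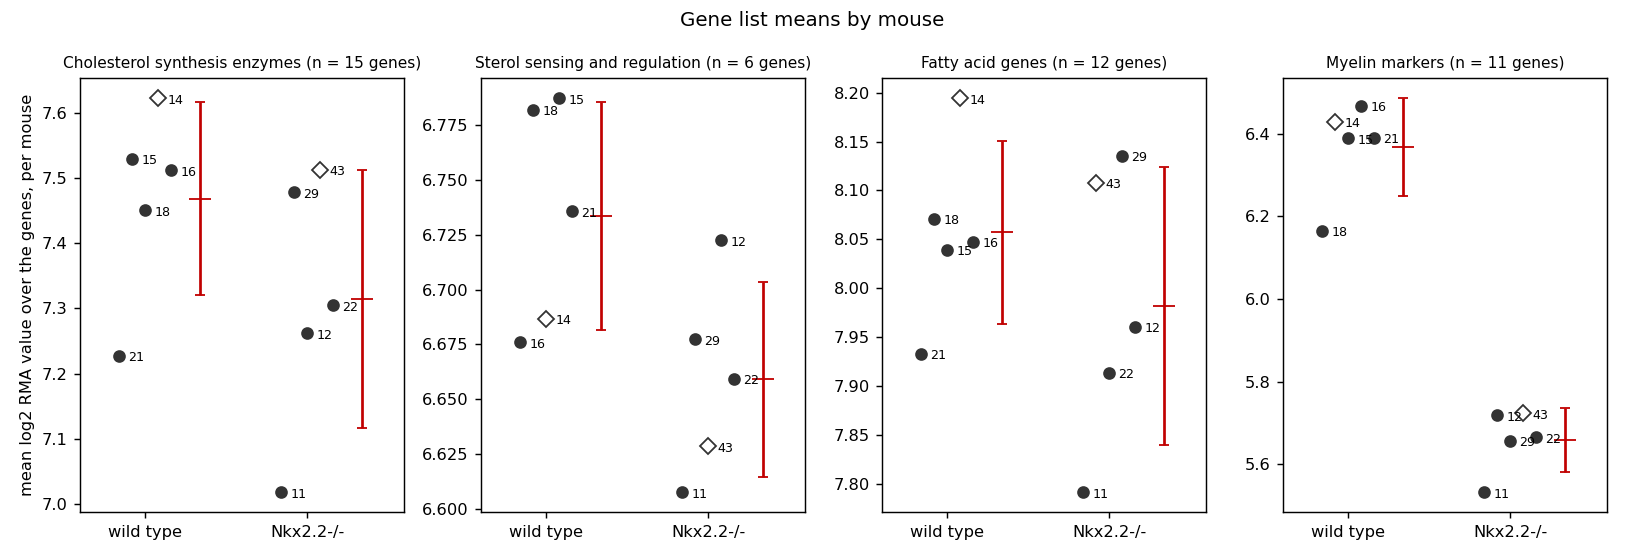
Mean log2 value over the measured genes of 4 lists in each mouse, numbered by replicate; open diamonds are the arrays of low 5 prime Gapdh signal, red bars are group mean ± SD (n = 5 each), and each panel has its own axis. The 3 lipid lists overlap between genotypes, while the myelin markers do not.

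Many members moved with the Gapdh 3 prime minus 5 prime difference, a measure from 1 transcript. In a limma fit with both genotype and the Gapdh 3 prime minus 5 prime difference, 17 of 33 members changed with the Gapdh difference at an adjusted p under 0.05, where 17.6% of all genes did. Of these 12 rose (12.6% of genes) and 5 fell (5.05%). The slope rests on replicates 14 and 43, since the other 8 arrays span little of the scale. In the fatty acid branch 9 of 12 passed, 7 upward and 2 downward. Me1 rose by 0.23 per log2 unit of the Gapdh difference (limma adjusted p = 0.00294), Acsl3 by 0.22 (adjusted p = 0.00421), Fads1 by 0.19 (adjusted p = 0.0043) and Elovl6 by 0.18 (adjusted p = 0.00637). Fads2 fell by 0.59 (limma adjusted p = 9.34e-06) and Fasn fell by 0.11 (adjusted p = 0.0228). Of the cholesterol enzymes 4 of 15 rose and Ebp fell, with Sqle rising by 0.27 (limma adjusted p = 0.0064). Among the regulatory genes Stard4 rose by 0.12, while Srebf2 fell by 0.19 and Scap by 0.09.

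The deviations of replicates 14 and 43 from the other mice of their genotype were both above 0 for 18 of 33 members, both below for 8 and opposite in sign for 7. Over all 18193 genes these numbers were 6691, 5904 and 5598. The 7 members were Hmgcs1, at -0.11 and 0.55, Pmvk, Mvd, Insig2, Srebf1, Acaca and Elovl5. Replicates 14 and 43 were both the highest of their groups for 15 of 33 members, beside 18.5% of all genes, and both the lowest for 4, beside 11% of genes. Sqle was 0.85 above the other wild-type mice in replicate 14 and 0.84 above the other Nkx2.2-/- mice in replicate 43. For Me1 these values were 0.83 and 0.70, for Fads1 0.61 and 0.59, and for Fads2 -1.58 and -2.09. Across the 33 genes the deviations of both arrays correlated at r = 0.91, and across all 18193 genes at r = 0.74. Genes are not independent, so these are descriptions.

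**Figure D4:**
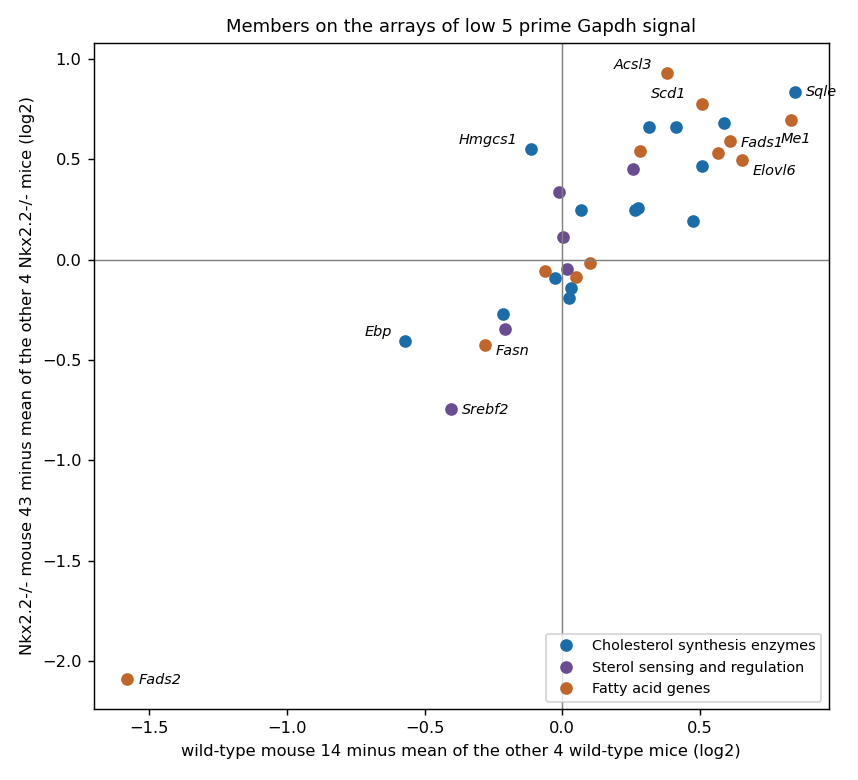
Deviation of wild-type mouse 14 from the other 4 wild-type mice (horizontal) against that of Nkx2.2-/- replicate 43 from the other 4 Nkx2.2-/- mice (vertical), in log2 units, 1 point per gene. The points run from Fads2 at -1.58 and -2.09 to Sqle at 0.85 and 0.84.

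With the Gapdh difference held in the model, 0 members passed for genotype (lowest limma adjusted p = 0.930), beside 0.0934% of all genes. At an unadjusted limma p under 0.05, 9 were lower and 0 higher, beside 3.97% of all genes lower and 132 of 18193 higher. Scd1 then had a difference of -0.39 (SE 0.125) and Hmgcs1 of -0.31. Without replicates 14 and 43, 0 passed (10 of 18193 genes did, 0.055%), 28 of 33 were again lower in sign, beside 52.9% of genes, and 5 were lower at an unadjusted limma p under 0.05, beside 2.97%, and 0 higher, beside 0.77%. These 5 were Hmgcs1 at -0.40, Scd1 at -0.36, Ebp and Insig2 at -0.22 each, and Stard4 at -0.15. With replicate 11 also left out, in a run added after the data were seen, 13 of 15 cholesterol enzymes, 3 of 6 regulatory genes and 5 of 12 fatty acid genes were lower in sign, beside 49.1% of genes. By the test 0 members passed, beside 0.0275% of genes, and the cholesterol median was -0.08.

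Probe sets of 1 gene did not always read alike. Over 78 member probe sets 63 were lower in sign, beside 49.2% of all, and 0 passed (limma, against 0.0511% of all probe sets). At an unadjusted limma p under 0.05, 7 were lower, beside 2.35%, and 0 higher, beside 1.08%. In 0 of 78 were the groups free of overlap, beside 0.442% lower and 0.315% higher. For Hmgcs1 these included the second brightest of 5 probe sets, which read 10.32, 10.37, 10.09, 10.31 and 10.06 in wild-type and 9.68, 9.83, 9.97, 10.07 and 10.04 in Nkx2.2-/- mice. It had a difference of -0.31 (SE 0.0877, limma adjusted p = 0.9997), and only replicate 29 of the Nkx2.2-/- mice exceeded the lowest wild-type mouse. In this probe set replicate 43 was only 0.16 above the other Nkx2.2-/- mice, against 0.55 in the brightest and 1.25 in the next to dimmest. For Fads2 the deviations of replicates 14 and 43 of -1.58 and -2.09 belonged to 1 of 3 probe sets, and the others read -0.07 and -0.12, and -0.12 and -0.10. Both Srebf2 probe sets were low in the pair of arrays, by -0.40 and -0.74 in the brighter and -0.60 and -0.85 in the dimmer. For Fads1 and Elovl6 the high readings of these arrays were likewise in the brightest probe set, with deviations from -0.19 to 0.02 in the others.

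Other genes of the pathways, from a list of 59 set out beside the members, were measured for 49. Of 17 other sterol genes 13 were lower in sign with a median of -0.06, and of 32 other fatty acid genes 21 with a median of -0.04, beside 53% of all genes lower. None passed in either direction (limma), beside 0.0605% of all genes. Npc2, which moves cholesterol out of lysosomes, had a difference of -0.23 (SE 0.0630, limma adjusted p = 0.960), with wild-type mice from 8.60 to 8.91 and Nkx2.2-/- mice from 8.51 to 8.66. Lpl, lipoprotein lipase, had one of -0.65 (SE 0.245), with wild-type mice 14 and 15 highest at 8.07 and 8.02, the other wild-type mice from 6.71 to 7.21, and Nkx2.2-/- mice from 6.56 to 6.95. Elovl7, an elongase, had one of -0.27 (SE 0.0592, limma adjusted p = 0.578), with 5.21 to 5.49 against 5.07 to 5.16. It was dim, at percentile 37.4 of gene means, and its Nkx2.2-/- values were near the array medians of 5.07 to 5.12. Erg28, a scaffold protein of sterol synthesis, had a difference of -0.20 (SE 0.0762, limma adjusted p = 0.9996), with 7.97 to 8.15 against 7.57 to 7.96. Elovl7 and Erg28 were the other pathway genes whose groups did not overlap, 1 in each list, beside 0.528% of all genes lower. Erg28 is named for that reason after its values were seen. Oxsm, of the mitochondrial pathway, had one of -0.10 (SE 0.0487).

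Markers of cell types and regions also moved between the groups or mice. The mean of 11 of 12 myelin markers was 6.17 to 6.47 in wild-type and 5.53 to 5.72 in Nkx2.2-/- mice, with replicate 11 the lowest. Of the 11, 6 fell by the test over all genes, beside 0.0605% of all genes. The mean of 11 of 12 proliferation genes was 6.15 to 6.81 against 5.74 to 6.27, where replicate 18 was the highest wild-type and replicate 11 the highest Nkx2.2-/- mouse. Cerebellar genes, 10 of 10, had means from 6.29 to 7.41 and from 6.19 to 7.17, high in replicates 18 and 11 again and, at 6.92, in replicate 21. The cholesterol means of replicates 18, 11 and 21 were 7.45, 7.02 and 7.23. These mice were picked after their values were seen, and a link between the lists was not tested. Astrocyte genes, 10 of 10, ran from 8.27 to 8.44 and from 8.08 to 8.47, and neuronal genes, 10 of 10, up to 10.10 in wild-type mice and from 9.86 to 10.26 in Nkx2.2-/- mice, with replicate 11 the lowest mouse in both. Precursor genes, 8 of 8, ran from 7.69 to 7.77 and from 7.60 to 7.92, and 9 of 10 spinal cord Hox genes from 4.95 to 5.12 and from 5.07 to 5.59. Meningeal genes, 8 of 8, ran from 6.51 to 7.96 and from 6.70 to 7.20, microglial genes, 8 of 8, from 6.24 to 6.47 and from 6.13 to 6.41, and 3 of 7 red cell genes from 4.62 to 4.72 and from 4.61 to 4.68. The part of these in the lipid gene values was not tested. With the proliferation mean as a covariate the cholesterol median was -0.32, and 0 members passed (limma), beside 0.0165% of genes. With the Hox mean as a covariate that median was -0.26. Both covariates differed between the genotypes, by -0.44 for proliferation and 0.30 for Hox, so these fits cannot separate them from genotype.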

How the data were processed

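The deposited values are log2 expression values made by the authors with RMA, per the submitters' processing notes (which name no version). That method corrects background, quantile-normalizes probes and summarises probe sets, so a change shared by most genes is not seen, and dim differences are compressed. The number of arrays limits the precision. The labels name no litter, sex or batch, so the fit treated the mice as independent. A likeness between littermates could not be allowed for in the SEs and p-values.

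Of 45101 probe sets 64 were controls. Genes were read by the brightest of their probe sets naming 1 symbol. The genotype difference was fitted by limma (3.58.1, lmFit then eBayes, R 4.3.3) over 18193 genes, and separately over all non-control probe sets, with Benjamini-Hochberg adjustment at 0.05. Lists were described by counts, medians and means by mouse. The fit was checked on simulated data with 200 changed genes of 18193. It called 73.2% of changes of 0.5, 97.2% of 1, 99.2% of 1.5 and 100% of 2 on the log2 scale, and 0.0723% of unchanged genes. Calling of changes smaller than 0.5 was not tested. In the mice 11 of 18193 genes passed, fewer than the 200 changed genes of the check. The SEs of the 33 members ran from 0.0429 for Acacb to 0.457 for Fads2. How often a change is called at a member's own SE was not tested. The percentages called therefore do not apply to single members. The differences of the 33 members, by brightest probe set, ran from -0.31 to 0.11. Tables were handled in pandas 2.3.3 (Python 3.11.15) and plots drawn in matplotlib 3.10.9.

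The comparison was repeated with quantile normalization, arrays set to 1 median, no dim genes, the mean of probe sets, trend and robust priors, array weights, covariates (Gapdh and beta-actin 3 prime minus 5 prime difference, Hox and proliferation means), another threshold, and leaving out arrays. Genes shown by mouse were those of lowest p (6, 2 and 4 in the 3 lists), the largest positive difference in a list, and the 2 of lowest p in each list of other pathway genes. Members whose probe sets differ in sign by over 0.2 each way were also to be shown, and there were none. Further members are named by value only. Members, lists and alternatives were chosen with earlier results of these data known.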

Additional observations from a re-analysis of the deposited data

Results flagged for a closer look

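Of 48 sets of 5 values checked, chance marks about 1 in 20, and 9 held a mouse far from the rest of its group. Wild-type replicate 14 stood apart for the Gapdh 3 prime minus 5 prime difference, at 2.13 against -0.32 to 0.08, for Fads2, at 5.87 against 7.27 to 7.60, and for Ebp, at 6.19 against 6.69 to 6.85. It was also high for Nkx2-2, at 6.88 against 6.42 to 6.51. Nkx2.2-/- replicate 43 stood apart for the Gapdh difference, at 3.78 against -0.17 to 0.13, and for Fads2, at 5.24 against 7.20 to 7.46. Nkx2.2-/- replicate 11 was low for Insig1, at 6.87 against 7.11 to 7.19, and high for Srebf1, at 6.62 against 6.37 to 6.44. Wild-type replicate 18 was low for Mbp, at 10.36 against 10.83 to 10.94.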

How the results depend on the processing

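No member passed over all genes under any alternative, nor at an adjusted p of 0.1, and no member probe set passed without any 1 array or with dim probe sets left out. No genotypes share replicate numbers, so no paired analysis was possible because the labels give no pairs. Leaving out 1 array moved the median difference of the cholesterol enzymes between -0.22 and -0.09, of the regulatory genes between -0.14 and -0.09, and of the fatty acid genes between -0.15 and 0.02. The fatty acid median was 0.01 without wild-type replicate 14 and 0.02 without Nkx2.2-/- replicate 11. The regulatory median was -0.0693 with array weights, and the fatty acid median -0.17 with the proliferation covariate. The count of fatty acid genes lower in sign ran from 3 to 11 without 1 array, and was 5 without replicates 11, 14 and 43. Quantile normalization and a common median each gave 14 of 15 cholesterol enzymes and 4 of 6 regulatory genes lower in sign. For the fatty acid genes they gave 8 and 7 of 12, with medians of -0.02 and -0.01. Over all members they gave 26 and 25 of 33, against 28 in the main fit. Leaving out arrays also moved the cholesterol count. Without 1 array the cholesterol count ran from 12 of 15 to 15 of 15. It was 12 without wild-type replicate 14 and 13 without Nkx2.2-/- replicate 22. Fads2 changed sign with array weights (0.0311), the Gapdh covariate (0.0149), the beta-actin covariate (0.12), the proliferation covariate (0.0153) and without replicate 43 (0.19), and was -0.54 without replicate 14. Scd2 did so without replicate 11 (0.0138), Oxsm with the mean of probe sets (0.00095), and Fasn with array weights (-0.00845), the Hox covariate (-0.11) and without wild-type replicate 14 (-0.0236) or Nkx2.2-/- replicates 22 (-0.02) and 29 (-0.01). The cause was not tested. Dim probe sets, 17 of 78 members below the median level, limit what differences can be seen.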
